A study of Homo sapiens with 6 samples.

Results

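The 39 genes described here are 2 HIF alpha subunits, 21 targets of hypoxia-inducible factor (HIF) that lie outside glycolysis, and 16 genes of glucose uptake and glycolysis. They were chosen by symbol from the deposited count table, which lists 29744 gene symbols in 6 RNA sequencing libraries. All 39 were found there, and 38 passed the filter on low counts, which kept 14958 symbols. LOX, which encodes the collagen cross-linking enzyme lysyl oxidase, did not pass, with 1 and 0 counts in MKN-HER2R, 0 and 0 in MKN-CEAR and 6 and 0 in MKN45. A gene set chosen by function carries no expectation that all of it moves, so counts of members are given beside the same counts over all tested genes.

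RNA came from 3 cultured human gastric tumour lines with 2 libraries each. MKN-HER2R is a derivative resistant to HER2-TCB, a bispecific antibody that binds T cells and the receptor HER2, and its source line is labelled MKN45-HER2, a name the labels do not explain. MKN-CEAR is a derivative resistant to CEACAM5-TCB, which binds T cells and the surface protein CEACAM5, and its source is labelled MKN45-CEAR. MKN45 is a gastric cancer line, sensitive by its label, of which the series' own text calls both resistant lines derivatives. No sensitive MKN45-HER2 libraries were analysed here, so differences of MKN-HER2R from MKN45 that came with resistance and any between MKN45-HER2 and MKN45 cannot be told apart. All lines grew without treatment in the same serum-containing medium, and the oxygen level is not given in the labels. Whether a derivative is 1 clone or a pool, and how resistance was obtained, is not stated there either. The question put by the design is how the resistant derivatives differ from MKN45.

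HIF is a transcription factor made of an oxygen-regulated alpha subunit and a constant beta subunit. In oxygenated cells prolyl hydroxylases mark the alpha subunit for destruction by the VHL ubiquitin ligase, so its protein can change while its mRNA does not. HIF binds short DNA elements with the core sequence ACGTG or GCGTG and raises genes for glucose uptake, glycolysis, pH control, mitophagy, matrix modification and blood vessel growth. Only mRNA was measured here, neither HIF protein nor oxygen, glucose uptake or lactate.

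Promoter sequences were looked up in RefSeq (GRCh38.p14), each from 250 bases before to 50 bases after a transcription start, and 35 of the 39 members matched. Those of BNIP3L, HILPDA, NDRG1 and VEGFA were not analysed here. Printed below are promoters of 4 HIF targets and of GAPDH, read 5′ to 3′ along the gene's strand, with each ACGTG or GCGTG on either strand in capitals. They were picked to show the span from several cores to none among members whose levels differed between lines. EGLN3 (chr14:33951025-33951324, minus strand) had the largest called difference in MKN-HER2R. P4HA1 (chr10:73096817-73097116, minus strand) and BNIP3 (chr10:131981874-131982173, minus strand) were called in MKN-HER2R. CA9 (chr9:35673678-35673977, plus strand) was called in MKN-CEAR. GAPDH (chr12:6535014-6535313, plus strand) is a glycolytic gene whose element overlaps CACGTG, the E-box that MYC family factors bind.
EGLN3: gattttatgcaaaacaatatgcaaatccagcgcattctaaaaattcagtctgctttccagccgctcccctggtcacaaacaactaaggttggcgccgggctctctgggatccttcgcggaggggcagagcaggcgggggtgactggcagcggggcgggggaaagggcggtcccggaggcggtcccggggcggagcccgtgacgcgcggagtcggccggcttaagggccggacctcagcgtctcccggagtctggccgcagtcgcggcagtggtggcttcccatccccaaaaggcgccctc
P4HA1: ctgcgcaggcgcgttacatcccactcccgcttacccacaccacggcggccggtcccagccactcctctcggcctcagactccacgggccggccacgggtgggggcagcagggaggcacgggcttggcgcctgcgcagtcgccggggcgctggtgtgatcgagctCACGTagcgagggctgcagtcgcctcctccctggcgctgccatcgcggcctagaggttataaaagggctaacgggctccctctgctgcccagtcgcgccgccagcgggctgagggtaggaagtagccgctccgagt
BNIP3: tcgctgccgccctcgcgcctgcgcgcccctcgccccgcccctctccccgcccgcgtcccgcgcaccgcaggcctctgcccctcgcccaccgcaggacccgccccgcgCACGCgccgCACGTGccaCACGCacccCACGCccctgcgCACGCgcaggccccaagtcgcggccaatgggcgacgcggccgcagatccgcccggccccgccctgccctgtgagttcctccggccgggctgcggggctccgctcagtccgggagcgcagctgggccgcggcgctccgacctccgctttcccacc
CA9: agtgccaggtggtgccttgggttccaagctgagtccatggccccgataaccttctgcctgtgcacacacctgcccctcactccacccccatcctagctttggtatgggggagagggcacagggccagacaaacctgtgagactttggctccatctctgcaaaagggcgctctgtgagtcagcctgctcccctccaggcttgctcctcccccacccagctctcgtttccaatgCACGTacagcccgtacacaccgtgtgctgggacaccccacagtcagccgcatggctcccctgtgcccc
GAPDH: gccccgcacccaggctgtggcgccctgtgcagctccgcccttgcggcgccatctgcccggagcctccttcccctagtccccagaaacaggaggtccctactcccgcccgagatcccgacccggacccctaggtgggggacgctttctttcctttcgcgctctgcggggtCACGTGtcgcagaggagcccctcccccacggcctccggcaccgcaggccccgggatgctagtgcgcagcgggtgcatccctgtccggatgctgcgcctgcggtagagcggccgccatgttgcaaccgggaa

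BNIP3 held 5 separate capital runs, with cores between positions -143 and -104 from the start, while P4HA1 held 1 core at -86, CA9 1 at -18 and GAPDH 1 palindromic element at -81. The EGLN3 window held no such letters, which says only that they are not in these 300 bases. Across members, ACGTG was found in 60.9% of 23 promoters of HIF targets and 41.9% of 31 promoters of glycolysis genes, against 21.4% of all 34943 promoters of the same length. For ACGTG or GCGTG the shares were 82.6%, 71.0% and 48.4% in the same order. CACGTG, which contains ACGTG on both strands, was in 13.0% of HIF target promoters, 19.4% of glycolysis promoters and 7.23% of all promoters. Some genes have several promoters in the table and some of those overlap, so promoters are not independent, and a match is a description and not a bound site.

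Library totals ran from 39657353 to 57964246 counts, and 1 count was worth 0.0177 to 0.0255 CPM, the unit of all levels here, which scales counts to a common library total. In MKN-HER2R, MKN-CEAR and MKN45 the 9 T cell markers in the table summed to 0.153 to 0.383, 0.169 to 0.202 and 0.0354 to 0.159 CPM, and CD3D, CD2, CD8B and GZMB had 0 counts in all 6 libraries. The 10 epithelial markers summed to 11675 to 15258, 7901 to 9525 and 10214 to 12246 CPM in the same order of lines. Fibroblast markers summed to at most 7.67 CPM and endothelial markers to at most 0.255 CPM in any library. The 5 myeloid markers summed to 365 to 403, 830 to 1197 and 910 to 1144 CPM, with the receptor gene CSF1R at 0 counts throughout. LYZ, which encodes lysozyme, was lower in MKN-HER2R than in MKN45 (log2 fold change -1.42, edgeR adjusted p = 0.0192, up to 0.136 without either MKN-HER2R library or MKN45 library 2), and its part in the results below was not tested. The 2 libraries of a line are numbered 1 and 2 with no meaning given, and the labels name no separate cultures. The p-values thus rest on a spread among libraries that may be technical.

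Of 20 tested HIF targets outside glycolysis, 9 were higher in MKN-HER2R than in MKN45, where 4.89% of all tested genes were, and 3 were higher in MKN-CEAR, where 2.57% were. EGLN3, an oxygen sensor that is itself a HIF target, was the member with the largest called difference in MKN-HER2R, at a log2 fold change of 3.05 ± 0.22 (SE; 1 log2 unit is a factor of 2), and was also higher in MKN-CEAR, at 1.95 ± 0.21. The alpha subunit gene EPAS1 was higher in MKN-HER2R than in both other lines. None of the 16 glycolysis genes was called in MKN-HER2R against MKN45 by edgeR, whereas HK1 and TPI1 were lower in MKN-CEAR. A gene is said to be called, higher, or lower where the Benjamini-Hochberg adjusted p of edgeR's quasi-likelihood test over all 14958 genes, given below as the edgeR adjusted p, was under 0.05. Levels are averages over a culture, so a change in some cells and a smaller change in all of them cannot be told apart.

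**Figure D1:**
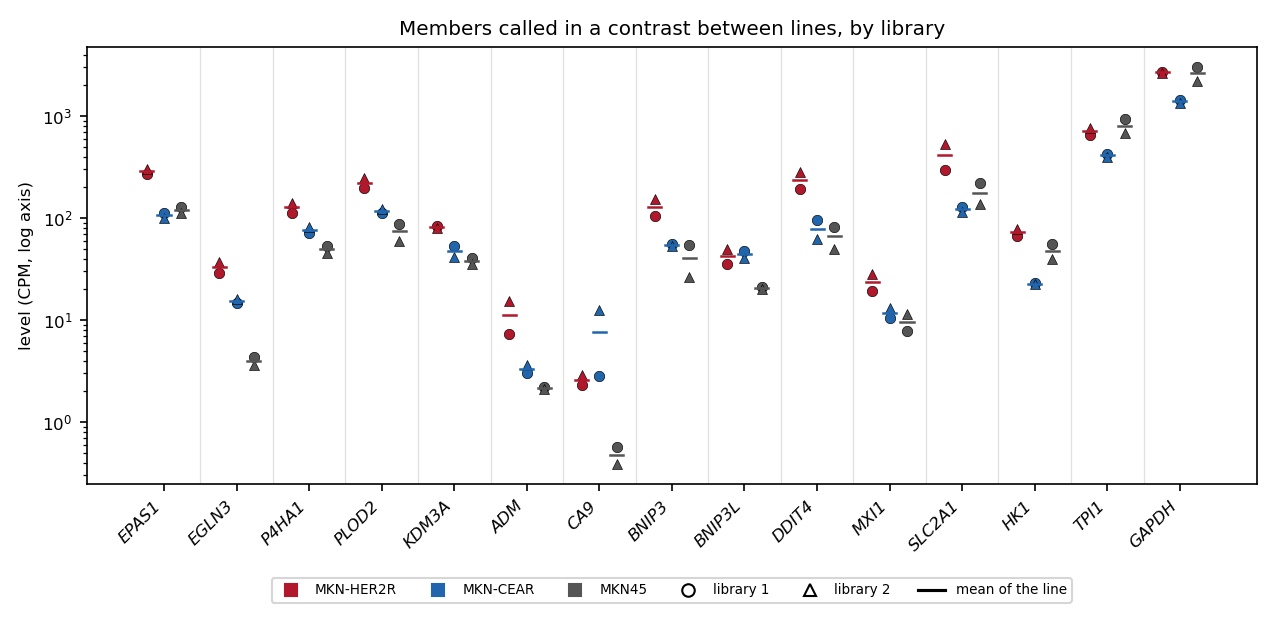
Level in CPM on a log axis of each of the 15 members called in a contrast between lines, one point per library (circle, library 1; triangle, library 2) and a bar at the mean of the 2 libraries. MKN-HER2R is drawn left of MKN-CEAR and MKN45. EGLN3 steps down from MKN-HER2R through MKN-CEAR to MKN45 with no overlap, and GAPDH is at 1443 and 1337 CPM in MKN-CEAR and at 2223 CPM or more in the other 4 libraries.

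In MKN-HER2R against MKN45, 10 of the 38 tested members were called higher (26.3%) and 0 lower, where 4.89% of all tested genes were called higher and 4.85% lower. At an unadjusted p under 0.05, 21 members were higher (13.9% of all genes) and 1 lower (14.8% of all genes). Under the replicate block, a fit with the library number as a term, 22 members were higher and 1 lower, where 16.2% of all genes were higher and 17.5% lower. Both MKN-HER2R libraries lay above both MKN45 libraries for 28 of 38 members (73.7%), against 27.8% of all genes, and below them for 1 (2.63%), against 29.3%. Over all tested genes, differences between the numbered libraries correlated across all pairs of lines, so the value under the block is given beside a member whose call it changes. Most glycolysis genes and many HIF targets did not share such a shift. They were higher in library 2 of MKN-HER2R and lower in library 2 of MKN45. Such targets included EGLN3, P4HA1, PLOD2, BNIP3 and DDIT4, while KDM3A, MXI1 and NDRG1 moved the same way in all lines. For SLC2A1 the log2 difference of library 2 and library 1 was 0.86 in MKN-HER2R, -0.16 in MKN-CEAR and -0.68 in MKN45.

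HIF1A, which encodes the most widely expressed HIF alpha subunit, had 312 and 307 CPM in MKN-HER2R, 321 and 329 in MKN-CEAR and 251 and 220 in MKN45. Both derivatives lay above MKN45 in every library. The differences were 0.39 ± 0.13 for MKN-HER2R and 0.46 ± 0.13 for MKN-CEAR on the log2 scale and were not called (edgeR adjusted p = 0.11 and 0.0935), but were called under the replicate block (edgeR adjusted p = 0.0267 and 0.0172). EPAS1, which encodes HIF-2 alpha, had 271 and 304 CPM in MKN-HER2R, 112 and 99.2 in MKN-CEAR and 128 and 112 in MKN45. Its MKN-HER2R libraries stood apart above the other 4, among which MKN-CEAR and MKN45 touched at about 112 CPM. The EPAS1 difference was 1.26 ± 0.14 against MKN45 (edgeR adjusted p = 0.00671) and 1.44 ± 0.14 against MKN-CEAR (edgeR adjusted p = 0.00551). MKN-CEAR against MKN45 gave -0.19 ± 0.14 for EPAS1 and was not called (edgeR adjusted p = 0.496).

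Per kilobase of exon, HIF1A stayed the more abundant alpha subunit mRNA in all lines, and EPAS1 made up 39.6% ± 2.22 of the pair in MKN-HER2R, 18.7% ± 1.61 in MKN-CEAR and 26.5% ± 0.0154 in MKN45 (SD, n = 2 libraries each). Antisense genes overlap HIF1A, and since the strand setting of the authors' counting is not given, reads of the antisense partners may be included. No gene overlaps EPAS1 in GENCODE 29. Shares of this kind depend on exon lengths summed over all annotated transcripts, so they compare lines and are rough as ratios between genes.

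Among the oxygen sensors, EGLN3 (prolyl hydroxylase PHD3) had 28.9 and 37.1 CPM in MKN-HER2R, 14.7 and 16 in MKN-CEAR and 4.34 and 3.59 in MKN45. The 3 lines followed each other without overlap in that order. All 3 contrasts were called, with edgeR adjusted p = 0.00206 for MKN-HER2R against MKN45, 0.0074 for MKN-CEAR against MKN45, and 0.0216 for MKN-HER2R against MKN-CEAR (log2 fold change 1.10 ± 0.20). EGLN1 (PHD2), the main hydroxylase of HIF alpha in most cells, had 42 and 46.5 CPM in MKN-HER2R, 51.4 and 47.3 in MKN-CEAR and 38.3 and 33.4 in MKN45. It was not called in any contrast, and only under the replicate block was it higher in MKN-CEAR than in MKN45 (edgeR adjusted p = 0.0244). Of the summed EGLN1 and EGLN3 level per kilobase, EGLN3 made up 42.2% ± 2.56 in MKN-HER2R, 23.5% ± 2.17 in MKN-CEAR and 9.83% ± 0.342 in MKN45 (SD, n = 2 each). The library values of this share did not overlap between lines.

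**Figure D2:**
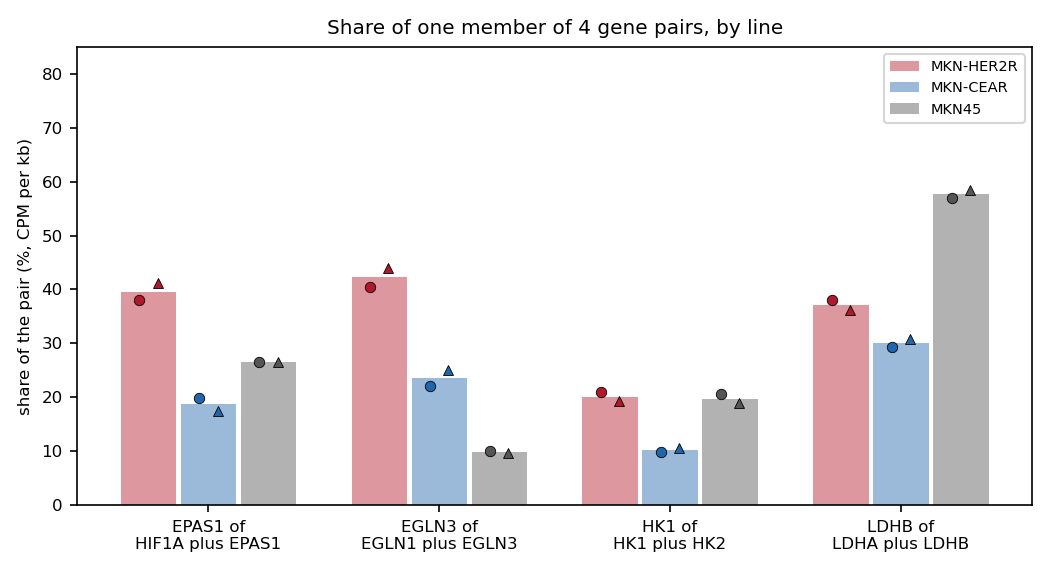
Share of one gene of 4 pairs in percent of the pair's summed CPM per kilobase of exon, with bars at the mean of 2 libraries and a point per library (circle, library 1; triangle, library 2), in MKN-HER2R, MKN-CEAR and MKN45 from left to right. EGLN3 takes 42.2%, 23.5% and 9.83% of its pair, and HK1 takes 10.3% of its pair in MKN-CEAR, against 20.1% in MKN-HER2R and 19.7% in MKN45.

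Among genes of collagen-modifying enzymes, P4HA1 and PLOD2 were higher in MKN-HER2R than in both other lines. P4HA1, the catalytic subunit of collagen prolyl hydroxylase, had 112 and 142 CPM in MKN-HER2R, 71.0 and 80.8 in MKN-CEAR and 52.7 and 45.6 in MKN45. PLOD2, a collagen lysyl hydroxylase, had 195 and 244 CPM in MKN-HER2R, 111 and 123 in MKN-CEAR and 87.7 and 59.8 in MKN45. For both genes the libraries of the 3 lines did not overlap, MKN-HER2R was highest and MKN45 lowest. P4HA1 was higher in MKN-HER2R than in MKN45 by 1.37 ± 0.17 on the log2 scale (edgeR adjusted p = 0.00813) and than in MKN-CEAR by 0.74 ± 0.17 (edgeR adjusted p = 0.0342). The corresponding PLOD2 values were 1.57 ± 0.22 (edgeR adjusted p = 0.0118) and 0.90 ± 0.21 (edgeR adjusted p = 0.0399). In MKN-CEAR against MKN45 these genes, at 0.63 ± 0.17 and 0.67 ± 0.21, were called only under the block (edgeR adjusted p = 0.0128 for P4HA1 and 0.0314 for PLOD2). P4HA2, a second catalytic subunit, ranged only from 20.9 to 32.8 CPM over the 6 libraries. It was called only under the block in MKN-HER2R against MKN-CEAR (log2 fold change 0.49, edgeR adjusted p = 0.0306). Genes on the other strand overlap P4HA1, P4HA2 and PLOD2.

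Of the histone demethylases, KDM3A had 83.1 and 79.9 CPM in MKN-HER2R, 52.7 and 41.4 in MKN-CEAR and 40.1 and 35.2 in MKN45. The MKN-HER2R libraries lay above the other 4, which followed without overlap. KDM3A was higher in MKN-HER2R than in MKN45 by 1.11 ± 0.16 (edgeR adjusted p = 0.0134) and than in MKN-CEAR by 0.79 ± 0.16 (edgeR adjusted p = 0.0284). KDM4B, with 62.8 and 50.9 CPM in MKN-HER2R, 40.4 and 29.6 in MKN-CEAR and 41.9 and 35.2 in MKN45, was lower in library 2 of every line. It was higher in MKN-HER2R than in MKN45 only under the block (log2 fold change 0.56, edgeR adjusted p = 0.00593), and likewise than in MKN-CEAR (edgeR adjusted p = 0.00191).

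Of the secreted factors, only ADM was called between lines without the block. ADM, which encodes the vasodilator adrenomedullin, had 7.29 and 15.3 CPM in MKN-HER2R, 3.01 and 3.64 in MKN-CEAR and 2.21 and 2.09 in MKN45. Every MKN-HER2R library exceeded the others, and its own 2 libraries were far apart. ADM was higher in MKN-HER2R than in MKN45 by 2.38 ± 0.40 (edgeR adjusted p = 0.0202) and than in MKN-CEAR by 1.76 ± 0.39 (edgeR adjusted p = 0.0329). VEGFA, the vascular endothelial growth factor and the best known HIF target of this group, had 154 and 141 CPM in MKN-HER2R, 130 and 96.0 in MKN-CEAR and 173 and 125 in MKN45. Its MKN-HER2R libraries lay between those of MKN45, with a log2 fold change of -0.01 ± 0.21 (edgeR adjusted p = 0.977). Under the block, VEGFA was lower in MKN-CEAR than in MKN45 (log2 fold change -0.39, edgeR adjusted p = 0.0378) and higher in MKN-HER2R than in MKN-CEAR (0.40, edgeR adjusted p = 0.026). ANGPTL4, which encodes an inhibitor of lipoprotein lipase, had 0.79 and 6.25 CPM in MKN-HER2R, 0.506 and 1.42 in MKN-CEAR and 0.159 and 0.318 in MKN45. Library 2 was higher in each line, most of all in MKN-HER2R. The fitted difference of 3.92 ± 1.16 for MKN-HER2R against MKN45 was not called without the block (edgeR adjusted p = 0.0832) and was called with it (edgeR adjusted p = 0.00119). It rests on MKN-HER2R library 2, since it was 1.76 without that library and 4.74 without MKN-HER2R library 1. Against MKN-CEAR, ANGPTL4 was at 1.85 ± 0.94 (edgeR adjusted p = 0.229) and was called under the block (edgeR adjusted p = 0.00974), and without MKN-HER2R library 2 it was at -0.30.

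The carbonic anhydrases, which control pH at the cell surface, had their highest mean level in MKN-CEAR. CA9, a common marker of HIF activity in tumours, had 2.29 and 2.88 CPM in MKN-HER2R, 2.84 and 12.4 in MKN-CEAR and 0.567 and 0.387 in MKN45. Both derivatives lay above MKN45, and MKN-CEAR library 2 lay far above every other library. CA9 was higher in MKN-CEAR than in MKN45 by 3.98 ± 0.80 (edgeR adjusted p = 0.0401). This value rests on MKN-CEAR library 2, since without it the log2 fold change was 2.55 and the call ended (edgeR adjusted p = 0.0713), while without MKN-CEAR library 1 it was 4.67. In MKN-HER2R against MKN45 CA9 was at 2.41 ± 0.87, called only under the block (edgeR adjusted p = 0.0225). The gene ARHGEF39 overlaps CA9 on the other strand. CA12 had 54.6 and 74.8 CPM in MKN-HER2R, 85.6 and 142 in MKN-CEAR and 65.7 and 75.4 in MKN45. MKN-CEAR was above the other lines in both libraries, a difference called only under the block (log2 fold change 0.65, edgeR adjusted p = 0.00922, against MKN45). For MKN-HER2R against MKN-CEAR, CA9 and CA12 were the 2 members called lower under the block, at -1.40 (edgeR adjusted p = 0.0372) and -0.80 (edgeR adjusted p = 0.00273).

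Of the mitophagy receptors, BNIP3 was higher in MKN-HER2R and BNIP3L in both derivatives. BNIP3 had 105 and 152 CPM in MKN-HER2R, 55.8 and 52.9 in MKN-CEAR and 54.3 and 26.1 in MKN45. MKN-HER2R lay above the other lines, and the MKN-CEAR libraries sat either side of the upper MKN45 library. BNIP3 was higher in MKN-HER2R than in MKN45 by 1.67 ± 0.35 (edgeR adjusted p = 0.036), and this value was 2.30 without MKN45 library 1. GENCODE 29 names 39 BNIP3 pseudogenes, so the authors' counting could have split its reads. BNIP3L, a paralog also called NIX, had 35.6 and 49.9 CPM in MKN-HER2R, 47.7 and 40.3 in MKN-CEAR and 21.0 and 19.9 in MKN45. The derivatives overlapped each other and lay wholly above MKN45. The differences were 1.06 ± 0.20 for MKN-HER2R (edgeR adjusted p = 0.0266) and 1.10 ± 0.20 for MKN-CEAR (edgeR adjusted p = 0.0299), while the derivatives differed by -0.04 ± 0.20 (edgeR adjusted p = 0.913). BNIP3L and EGLN3 were the 2 members called higher in both derivatives, and the MKN45 libraries are shared by both contrasts. PDK1, the kinase that restrains pyruvate dehydrogenase, ranged from 25.9 to 48.4 CPM and was called in no contrast, with or without the block.

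Of the other targets, DDIT4, which encodes an inhibitor of mTOR signalling, had 190 and 280 CPM in MKN-HER2R, 94.6 and 61.6 in MKN-CEAR and 82.2 and 49.9 in MKN45. The MKN-HER2R libraries lay far above the overlapping other 4. DDIT4 was higher in MKN-HER2R than in MKN45 by 1.83 ± 0.33 (edgeR adjusted p = 0.0248) and than in MKN-CEAR by 1.59 ± 0.33 (edgeR adjusted p = 0.0297). MXI1, which encodes a MAX-binding antagonist of MYC, had 19.2 and 28.3 CPM in MKN-HER2R, 10.4 and 13.2 in MKN-CEAR and 7.78 and 11.4 in MKN45. It was higher in MKN-HER2R than in MKN45 by 1.31 ± 0.29 (edgeR adjusted p = 0.04), the other lines overlapping. Against MKN-CEAR, MXI1 was called only under the block (log2 fold change 1.00, edgeR adjusted p = 0.00155), as was BNIP3 (1.26, edgeR adjusted p = 0.0114).

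NDRG1, a stress-induced gene often used as a hypoxia marker, had 58.5 and 192 CPM in MKN-HER2R, 19.5 and 93.3 in MKN-CEAR and 22.1 and 80.7 in MKN45. Library 2 was several times library 1 in every line, and within each number MKN-HER2R was highest. NDRG1 was not called in MKN-HER2R against MKN45 (1.29 ± 0.92, edgeR adjusted p = 0.408) but was called under the block (edgeR adjusted p = 0.000352), and so was MKN-HER2R against MKN-CEAR (edgeR adjusted p = 0.000416). HILPDA, which encodes a lipid droplet protein, was the only member called lower under the block in MKN-HER2R against MKN45. It had 7.24 and 9.54 CPM in MKN-HER2R, 9.61 and 11.1 in MKN-CEAR and 12.6 and 12.2 in MKN45, a log2 fold change of -0.56 ± 0.22 (edgeR adjusted p = 0.147, and 0.0373 under the block). ANKRD37, an ankyrin repeat gene, ranged from 0.978 to 4.39 CPM and was called higher in MKN-HER2R than in MKN45 only under the block (1.46, edgeR adjusted p = 0.0131).

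**Figure D3:**
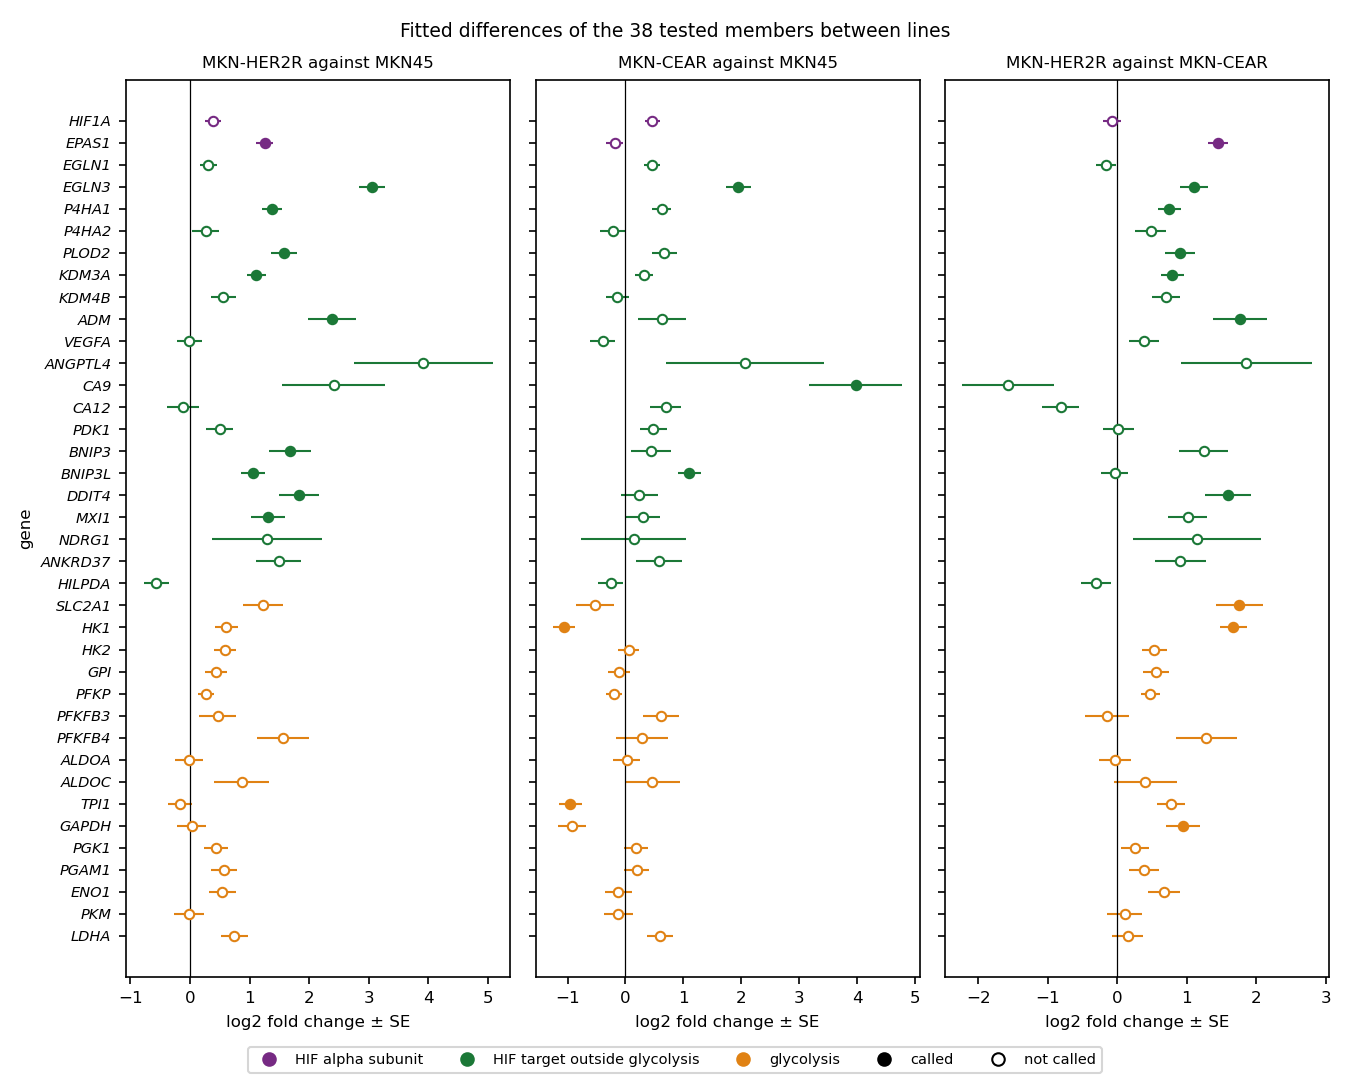
Fitted log2 fold change of the 38 tested members with its SE as a horizontal bar, in the contrasts of MKN-HER2R with MKN45, MKN-CEAR with MKN45 and MKN-HER2R with MKN-CEAR, in columns from left to right. Filled points are called by edgeR at an adjusted p under 0.05 and colours give the group of genes. In the first column 10 points are filled, none of them a glycolysis gene.

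Among genes of glucose entry, SLC2A1, the glucose transporter GLUT1, had 294 and 534 CPM in MKN-HER2R, 129 and 116 in MKN-CEAR and 218 and 136 in MKN45. MKN-HER2R was highest and MKN-CEAR lowest, without overlap. SLC2A1 was higher in MKN-HER2R than in MKN-CEAR by 1.76 ± 0.34 (edgeR adjusted p = 0.0251), while against MKN45 the difference of 1.22 ± 0.33 was called only under the block (edgeR adjusted p = 0.0663 without and 0.0152 with it). HK1, the housekeeping hexokinase, had 67.3 and 77.3 CPM in MKN-HER2R, 23.1 and 22.4 in MKN-CEAR and 55.3 and 39.3 in MKN45. The order was the same as for SLC2A1, again without overlap. Against MKN45, HK1 was at 0.61 ± 0.19 in MKN-HER2R, called only under the block (edgeR adjusted p = 0.092 without and 0.0179 with it). HK1 was lower in MKN-CEAR than in MKN45 (-1.06 ± 0.19, edgeR adjusted p = 0.03) and higher in MKN-HER2R than in MKN-CEAR (1.67 ± 0.20, edgeR adjusted p = 0.0075). HK2, the hexokinase that HIF is known to induce, ranged from 163 to 310 CPM and was called only under the block, higher in MKN-HER2R than in MKN45 (0.60, edgeR adjusted p = 0.0202) and than in MKN-CEAR (0.54, edgeR adjusted p = 0.0272). Per kilobase, HK1 made up 20.1% ± 1.06 of both hexokinases in MKN-HER2R, 10.3% ± 0.545 in MKN-CEAR and 19.7% ± 1.22 in MKN45 (SD, n = 2 each).

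TPI1 and GAPDH, neighbouring steps of glycolysis, were low in MKN-CEAR. TPI1, triosephosphate isomerase, had 649 and 767 CPM in MKN-HER2R, 428 and 400 in MKN-CEAR and 924 and 674 in MKN45. GAPDH, glyceraldehyde-3-phosphate dehydrogenase, had 2687 and 2664 CPM in MKN-HER2R, 1443 and 1337 in MKN-CEAR and 3032 and 2223 in MKN45. For both, MKN-CEAR lay below all other libraries while MKN-HER2R and MKN45 overlapped. TPI1 was lower in MKN-CEAR than in MKN45, at -0.95 ± 0.20 (edgeR adjusted p = 0.0461). GAPDH was at -0.92 ± 0.24 in that contrast, called only under the block (edgeR adjusted p = 0.0776 without and 0.0149 with it), and was higher in MKN-HER2R than in MKN-CEAR by 0.94 ± 0.24 (edgeR adjusted p = 0.0489). GENCODE 29 names 62 pseudogenes of GAPDH and 4 of TPI1, so their counts are uncertain to the extent that reads were shared with copies. Genes on the other strand overlap TPI1 and GAPDH. They also overlap EGLN3, LOX, VEGFA, ANGPTL4, PDK1, BNIP3, BNIP3L, ANKRD37, DDIT4, MXI1, SLC2A1, HK1, HK2, PFKFB3, ALDOA, ALDOC, PGK1, ENO1 and LDHB. On the same strand, genes overlap HIF1A, EGLN3, P4HA1, P4HA2, BNIP3L, HILPDA, MXI1, SLC2A1, GPI, PFKP, PFKFB3, PFKFB4, ALDOA, ALDOC, PGK1, ENO1, LDHA and LDHB. Among them are SPTSSA for EGLN3, ATP7A for PGK1 and UCN2 for PFKFB4. Whether reads were shared with any of these was not tested.

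The other 12 glycolysis genes were called in no contrast between lines. In MKN-HER2R against MKN45 the glycolysis genes ran from -0.18 for TPI1 to 1.57 for PFKFB4, a regulator of phosphofructokinase that ranged from 2.27 to 14.3 CPM. Without MKN45 library 1 TPI1 was at 0.075 and PFKFB4 at 2.51, and without MKN45 library 2 PFKFB4 was at 1.02. In MKN-CEAR against MKN45 they ran from -1.06 for HK1 to 0.61 for PFKFB3, and in MKN-HER2R against MKN-CEAR from -0.15 for PFKFB3 to 1.76 for SLC2A1. PFKFB4, PGAM1 (phosphoglycerate mutase) and LDHA (lactate dehydrogenase A) were higher in MKN-HER2R than in MKN45 only under the block, with edgeR adjusted p = 0.0108, 0.0234 and 0.0246. Against MKN-CEAR the block added GPI, PFKP, PFKFB4, TPI1 and ENO1 as higher in MKN-HER2R besides HK2, with edgeR adjusted p between 0.00902 for TPI1 and 0.0391 for ENO1. ALDOA (aldolase A) and PKM (pyruvate kinase), both among the most abundant members per kilobase, had log2 fold changes of -0.02 ± 0.23 for ALDOA and -0.02 ± 0.25 for PKM in MKN-HER2R against MKN45, and both turned positive in 2 of the 6 fits that leave out a library. Named pseudogenes number 13 for PGAM1, 6 for LDHA, 5 for PKM and 4 for ENO1. Per kilobase, GAPDH was the most abundant member in each line, with 898 CPM per kilobase in MKN-HER2R, 466 in MKN-CEAR and 881 in MKN45.

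Set side by side, HIF targets outside glycolysis had the higher median difference in each contrast. In MKN-HER2R against MKN45, 9 of 20 tested targets were higher and 0 lower, with a median log2 fold change of 1.30, while 0 of 16 glycolysis genes were called by edgeR, with a median of 0.50. At an unadjusted p under 0.05, 13 targets were higher and 1 lower, and 6 glycolysis genes were higher and 0 lower. At that threshold 13.9% of all genes were higher and 14.8% lower. DESeq2 called 12 targets and 6 glycolysis genes higher and none lower, where it called 9.28% of all genes higher and 9.95% lower. limma-voom called 9 and 0 higher and none lower, where it called 4.71% of all genes higher and 4.35% lower. Of the 16 glycolysis genes 13 had a positive log2 fold change. The median over all tested genes was -0.02. Under the block 14 targets were higher and 1 lower, and 6 glycolysis genes were higher. In MKN-CEAR against MKN45, 3 of 20 targets were higher and 0 lower (median 0.47), and 0 of 16 glycolysis genes were higher and 2 lower (median -0.05). Here 2.57% of all genes were higher and 3.62% lower. At an unadjusted p under 0.05, 7 targets were higher and 0 lower, with 1 glycolysis gene higher and 3 lower, where 10.8% of all genes were higher and 12.5% lower. DESeq2 called 5 targets higher and 3 glycolysis genes lower, where it called 6.28% of all genes higher and 7.75% lower. In MKN-HER2R against MKN-CEAR, 6 of 20 targets and 3 of 16 glycolysis genes were higher and 0 of either lower, with medians of 0.77 and 0.50. In that contrast 7.32% of all genes were higher and 6.75% lower. At an unadjusted p under 0.05, 10 targets and 9 glycolysis genes were higher and 1 target lower, where 16.3% of all genes were higher and 15.6% lower. DESeq2 called 9 targets and 9 glycolysis genes higher and 1 target lower, where it called 11.9% of all genes higher and 11.0% lower. The medians of targets and glycolysis genes were therefore apart by 0.80, 0.52 and 0.27 in the 3 contrasts, in that order, and no test was made of these differences because the members were chosen by function with results known. Leaving out MKN45 library 1 brought the first to 0.47, and leaving out MKN-HER2R library 2 brought the last to 0.13.

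**Figure D4:**
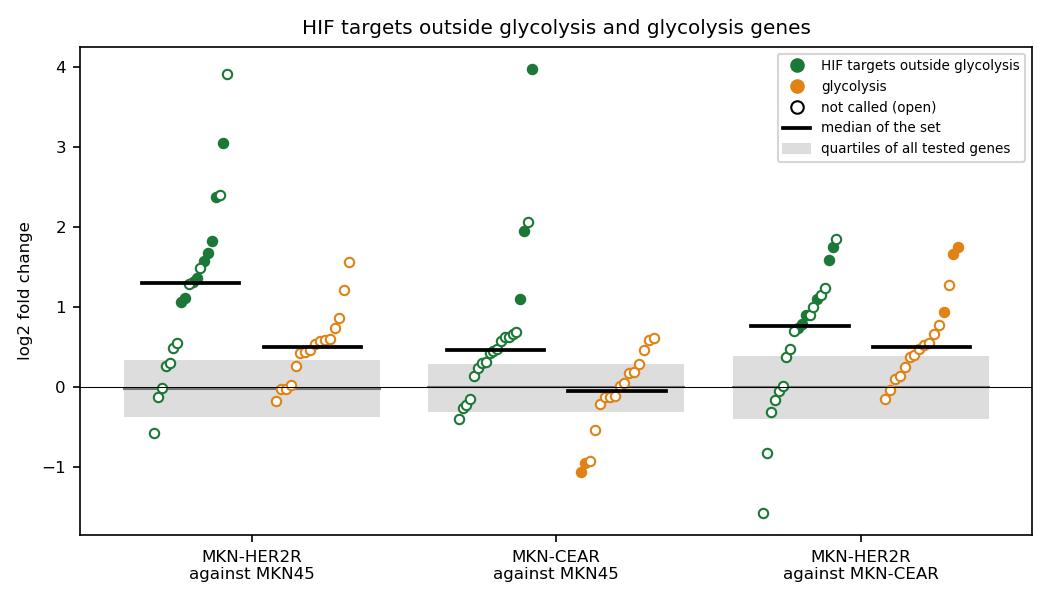
Log2 fold change of each tested HIF target outside glycolysis (green, 20 genes) and each glycolysis gene (orange, 16 genes) in 3 contrasts, sorted within the set, with filled points called by edgeR and black bars at the set's median. Grey bands span the quartiles of all 14958 genes. The medians are 1.30 and 0.50 in MKN-HER2R against MKN45, 0.47 and -0.05 in MKN-CEAR against MKN45, and 0.77 and 0.50 between the derivatives.

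Library by library, the median deviation of the 20 targets from their mean MKN45 log2 level was 0.86 and 1.51 in MKN-HER2R, 0.43 and 0.59 in MKN-CEAR and 0.10 and -0.10 in MKN45 libraries 1 and 2. Every derivative library lay above both MKN45 libraries. For the 16 glycolysis genes it was 0.42 and 0.66 in MKN-HER2R, -0.10 and -0.04 in MKN-CEAR and 0.22 and -0.22 in MKN45. Here MKN-HER2R was above MKN45, and MKN-CEAR lay within the MKN45 range. The 16 glycolysis genes together held 1.45% and 1.69% of all counts in MKN-HER2R, 1.24% and 1.25% in MKN-CEAR and 1.46% and 1.21% in MKN45, so MKN45 library 1 lay between the MKN-HER2R libraries. The 21 targets held 0.122% and 0.159% in MKN-HER2R, 0.0901% and 0.0962% in MKN-CEAR and 0.0744% and 0.0671% in MKN45, without overlap between lines.

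Most calls depended on particular libraries. In MKN-HER2R against MKN45, leaving out a MKN-CEAR library kept all 10 calls. Without MKN-HER2R library 2 only EGLN3 stayed called and the other 9 had edgeR adjusted p between 0.0584 and 0.189, with ADM at a log2 fold change of 1.75. Without MKN-HER2R library 1, 4 of the 10 stayed (EPAS1, EGLN3, P4HA1 and ADM), without MKN45 library 1 all but ADM, BNIP3L and MXI1 stayed, and without MKN45 library 2, 4 stayed (EPAS1, EGLN3, P4HA1 and PLOD2). The lost calls had edgeR adjusted p between 0.0526 and 0.127 in these 3 fits. Only EGLN3 was called in all 6. Such fits leave a line with 1 library of 1 number and assume that it varies like the others.

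In MKN-CEAR against MKN45 the 5 calls, 3 higher and 2 lower, came down to 1 or 2 whichever library was left out. EGLN3 stayed called in each of those fits. CA9, HK1 and TPI1 lost their calls without either MKN-HER2R library (edgeR adjusted p between 0.0726 and 0.0948), although that line is not in the contrast. Without MKN-CEAR library 1, EGLN3 and CA9 stayed. EGLN3 alone stayed without MKN-CEAR library 2 or MKN45 library 1, and EGLN3 and HK1 stayed without MKN45 library 2. The lost calls in those 4 fits had edgeR adjusted p between 0.0529 and 0.204. Under the block this contrast gained 5 higher and 2 lower members, to 8 and 4, where 12% of all genes were higher and 13.8% lower.

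Between the derivatives, 10 of 38 members were higher in MKN-HER2R and 0 lower, and under the block 23 were higher and 2 lower, where 19.7% of all genes were higher and 18.6% lower. All 10 calls stayed when a MKN45 library was left out. Without MKN-HER2R library 2 none stayed (edgeR adjusted p between 0.0561 and 0.194, with ADM at 1.13). Without MKN-HER2R library 1 the calls of EPAS1, ADM, SLC2A1 and HK1 stayed, and without either MKN-CEAR library those of EPAS1 and HK1. The lost calls in those 3 fits had edgeR adjusted p between 0.0533 and 0.244.

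Several HIF targets also differed by library number. In a fit with line and number, 4 of 38 members were higher in library 2 than in library 1 (10.5%) and 2 were lower (5.26%). These shares were near those of all genes, of which 9.33% were higher and 7.34% lower. All 6 were HIF targets outside glycolysis, 4 of 20 higher (20%) and 2 lower (10%). NDRG1 was higher in number 2 by 1.94 ± 0.12 (edgeR adjusted p = 0.000257), ANGPTL4 by 2.29 ± 0.40 (edgeR adjusted p = 0.00882), MXI1 by 0.49 ± 0.12 (edgeR adjusted p = 0.0293) and CA12 by 0.46 ± 0.11 (edgeR adjusted p = 0.0255). KDM4B (-0.33 ± 0.09, edgeR adjusted p = 0.0383) and VEGFA (-0.35 ± 0.09, edgeR adjusted p = 0.04) were lower. Of the 16 glycolysis genes edgeR called 0 by number, and 0 had an unadjusted p under 0.05. At that threshold 17.6% of all genes were higher and 14.9% lower. The number term is shared by the lines, so differences of opposite sign cancel in it. SLC2A1, at 0.86 in MKN-HER2R, -0.16 in MKN-CEAR and -0.68 in MKN45, was at 0.0054 in this fit. NDRG1 stayed called whichever library was left out. Without a MKN-HER2R library ANGPTL4 fell to 1.33 and 1.34 and lost its call, with KDM4B, CA12 and MXI1 (edgeR adjusted p between 0.0515 and 0.0843). Without a MKN-CEAR library KDM4B, VEGFA, CA12 and MXI1 lost theirs, and without a MKN45 library KDM4B, VEGFA and MXI1 (edgeR adjusted p between 0.0710 and 0.231).

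**Figure D5:**
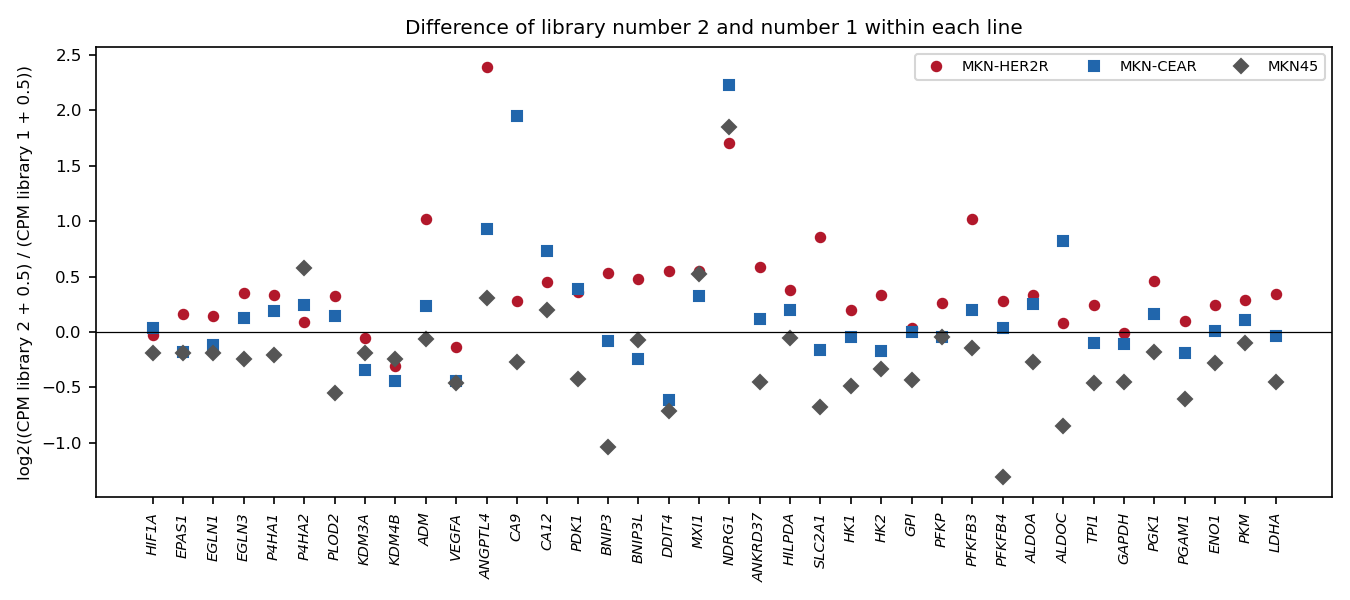
Difference of library 2 and library 1 of each line on the log2 scale (CPM with a pseudocount of 0.5) for the 38 tested members, with 1 point for each line. NDRG1 lies near 2 in all lines. Most glycolysis genes, and many HIF targets such as BNIP3 and DDIT4, lie above 0 in MKN-HER2R and below 0 in MKN45.

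Of 16 proliferation genes, 8 were lower in number 2 and 0 higher in the same fit, among them the mitotic kinase genes AURKA (-1.12, edgeR adjusted p = 0.000476) and PLK1 (-1.31, edgeR adjusted p = 0.00089) and the proliferation marker MKI67 (-1.07, edgeR adjusted p = 0.00125). These calls moved with the number, as did those of NDRG1 and ANGPTL4, and their part in those results was not tested. Between lines, edgeR called 0 proliferation genes in either derivative against MKN45, with list medians of 0.08 and 0.12. At an unadjusted p under 0.05, 1 was higher and 1 lower in MKN-HER2R, where 13.9% and 14.8% of all genes were. In MKN-CEAR 1 was higher and 0 lower at that threshold, where 10.8% and 12.5% were. In MKN-HER2R against MKN-CEAR edgeR called 0 higher and 1 lower of the 16, with a list median of -0.25. There 7.32% of all genes were higher and 6.75% lower. At an unadjusted p under 0.05, 1 was higher and 5 lower there, and under the block 4 were higher and 6 lower, where 19.7% and 18.6% of all genes were. The gene called lower was MCM5, a subunit of the replicative helicase (-0.79, edgeR adjusted p = 0.024), whose call ended when a library of either derivative was left out (edgeR adjusted p between 0.0834 and 0.131). Of 14 genes of the integrated stress response, which can also raise DDIT4, 4 were higher and 4 lower in number 2. In the fit with line and number, 9.33% of all genes were higher and 7.34% lower. DDIT3 was at 1.30 (edgeR adjusted p = 0.00139) and ATF4 at -0.83 (edgeR adjusted p = 0.00807).

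Other genes of oxygen sensing were compared from a list of 15, of which 14 were tested. Against MKN45, edgeR called 1 higher and 0 lower in MKN-HER2R (median 0.06), where 4.89% of all genes were higher and 4.85% lower. In MKN-CEAR it called 0 higher and 0 lower (median 0.10), where 2.57% and 3.62% were. Between the derivatives 1 was higher and 2 lower (median 0.009), where 7.32% and 6.75% were. Under the block 2 were higher and 1 lower in MKN-HER2R against MKN45, where 16.2% and 17.5% were. ARNT2, a HIF beta-class subunit best known from neurons, had 25.8 and 26.7 CPM in MKN-HER2R, 1.66 and 1.66 in MKN-CEAR and 1.56 and 1.55 in MKN45. MKN-HER2R stood apart from the other lines, which were close to each other. It was higher in MKN-HER2R by 4.07 ± 0.21 against MKN45 (edgeR adjusted p = 0.000997) and by 3.98 ± 0.21 against MKN-CEAR (edgeR adjusted p = 0.000934), and stayed called whichever library was left out. VHL, the substrate receptor of the ligase that destroys HIF alpha, had 55.5 and 49.9 CPM in MKN-HER2R, 91.3 and 76.4 in MKN-CEAR and 65.7 and 56.7 in MKN45. VHL was lower in MKN-HER2R than in MKN-CEAR (-0.67 ± 0.15, edgeR adjusted p = 0.0367), and so was SIAH1, a ligase that acts on prolyl hydroxylases (-0.76 ± 0.16, edgeR adjusted p = 0.0307). Both calls ended when any library of either derivative was left out (edgeR adjusted p between 0.0849 and 0.194).

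A further 38 HIF targets, of which 34 were tested, had 8 higher (23.5%) by edgeR in MKN-HER2R against MKN45 (median 0.32), where 4.89% of all genes were, and 3 higher (8.82%) in MKN-CEAR (median 0.15), where 2.57% were. Under the block 14 were higher and 2 lower in MKN-HER2R, where 16.2% and 17.5% of all genes were, and 6 were higher and 3 lower in MKN-CEAR, where 12% and 13.8% were. At an unadjusted p under 0.05, 13 were higher and 3 lower in MKN-HER2R, and 7 higher and 4 lower in MKN-CEAR, with the shares of all genes at that threshold as given above. FUT11, a fucosyltransferase gene, had 21.6 and 22.8 CPM in MKN-HER2R, 20.5 and 15 in MKN-CEAR and 3.63 and 2.68 in MKN45. Both derivatives lay far above MKN45, by 2.80 ± 0.25 (edgeR adjusted p = 0.00366) and 2.48 ± 0.25 (edgeR adjusted p = 0.00612), and both calls stayed whichever library was left out. PPFIA4, a liprin gene, was higher in MKN-HER2R by 3.32 (edgeR adjusted p = 0.0127, up to 0.0878 without MKN-HER2R library 1, MKN-HER2R library 2 or MKN45 library 2, and a value of 4.05 without MKN45 library 1). PLOD1, a lysyl hydroxylase gene, was higher by 0.82 (edgeR adjusted p = 0.0157, up to 0.113 when a MKN-HER2R or MKN45 library was left out). In MKN-CEAR, ZNF395, a zinc finger gene, was higher by 0.99 (edgeR adjusted p = 0.0223, up to 0.103 when a MKN-CEAR or MKN45 library was left out). MIR210HG, the host RNA of a microRNA induced by hypoxia, was higher in MKN-CEAR by 1.8 (edgeR adjusted p = 0.033). This call ended with each of the 6 libraries left out in turn. MIR210HG was also called higher in MKN-HER2R than in MKN45, a call that ended when a MKN-HER2R or MKN45 library was left out.

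Between the derivatives 4 of those 34 genes were higher in MKN-HER2R (11.8%) and 1 was lower (2.94%), where 7.32% of all genes were higher and 6.75% lower. Under the block 15 were higher and 3 lower, where 19.7% and 18.6% of all genes were. AK4, a mitochondrial adenylate kinase gene, differed by 2.82 (edgeR adjusted p = 0.027), a value that was 2.21 without MKN-CEAR library 1 and 3.89 without library 2 of that line, and its call ended without either MKN-HER2R library (edgeR adjusted p = 0.0845 and 0.127). BHLHE40, a transcriptional repressor gene, differed by 1.44 (edgeR adjusted p = 0.0282, up to 0.132 without either MKN-HER2R library or MKN-CEAR library 2), and PPFIA4 by 1.69 (edgeR adjusted p = 0.0393, up to 0.188 when a library of either derivative was left out). CXCR4, which encodes a chemokine receptor, had 0 counts in MKN-HER2R and 50 in MKN-CEAR, at least 15.2-fold lower with a floor of 3 counts over the line (edgeR adjusted p = 0.0293, up to 0.129 when a library other than MKN45 library 1 was left out).

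In glucose metabolism outside the members, 21 of 28 listed genes were tested. Against MKN45, edgeR called 1 higher and 1 lower (PCK2) in MKN-HER2R (median -0.11), where 4.89% of all genes were higher and 4.85% lower. In MKN-CEAR it called 0 higher and 2 lower (median -0.04), where 2.57% and 3.62% were. Between the derivatives 1 was higher and 2 lower (PCK2 and PGM2), where 7.32% and 6.75% were. The PCK2 and PGM2 calls ended without either MKN-HER2R library. Under the block 5 were higher and 7 lower in MKN-HER2R against MKN45, where 16.2% and 17.5% were. SLC16A3, the lactate exporter MCT4, had 93.6 and 104 CPM in MKN-HER2R, 26.9 and 26.1 in MKN-CEAR and 29.9 and 21.0 in MKN45. MKN-HER2R lay far above the other lines, which overlapped. It was higher in MKN-HER2R by 1.96 ± 0.19 against MKN45 (edgeR adjusted p = 0.00429), a call that stayed whichever library was left out, and by 1.90 ± 0.19 against MKN-CEAR (edgeR adjusted p = 0.0058, and 0.0570 without MKN-HER2R library 2). LDHB, the other lactate dehydrogenase subunit, had 382 and 444 CPM in MKN-HER2R, 267 and 279 in MKN-CEAR and 644 and 498 in MKN45. MKN45 was highest and MKN-CEAR lowest, without overlap. LDHB was lower in MKN-CEAR than in MKN45 (-1.06 ± 0.18, edgeR adjusted p = 0.0233, up to 0.120 when a library other than MKN45 library 2 was left out). Per kilobase, LDHB made up 37.1% ± 1.44 of LDHA plus LDHB in MKN-HER2R, 30.1% ± 1.05 in MKN-CEAR and 57.7% ± 0.993 in MKN45 (SD, n = 2 each). TIGAR, a fructose bisphosphatase gene, was also lower in MKN-CEAR (-1.02, edgeR adjusted p = 0.0411, 0.0681 to 0.162 with each of the 6 libraries left out in turn).

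Of 25 genes of the respiratory chain, all tested, 5 were lower (20.0%) in MKN-HER2R against MKN45 (median -0.25), where 4.85% of all genes were lower. In MKN-CEAR 2 were lower and 1 higher (median -0.21), where 3.62% of all genes were lower and 2.57% higher. In MKN-HER2R against MKN-CEAR 4 were lower and 1 higher (median -0.06), where 6.75% and 7.32% of all genes were. Under the block that contrast had 7 lower and 4 higher, where 18.6% and 19.7% were. Against MKN45 under the block, 11 were lower and 1 higher in MKN-HER2R, where 17.5% and 16.2% of all genes were. In MKN-CEAR 5 were lower and 2 higher under it, where 13.8% and 12% were. In MKN-HER2R these were led by SDHD of succinate dehydrogenase (-1.05, edgeR adjusted p = 0.0109), UQCRC2 of complex III (-0.93, edgeR adjusted p = 0.0134) and NDUFA9 of complex I (-0.70, edgeR adjusted p = 0.0203). Without either MKN-HER2R library all 3 calls ended (edgeR adjusted p between 0.0813 and 0.137), UQCRC2 and NDUFA9 ended without MKN45 library 1 (0.0590 and 0.0684) and NDUFA9 without MKN45 library 2 (0.0823). In MKN-CEAR NDUFA9 (-1.0, edgeR adjusted p = 0.00926) and ATP5PO (-1.0, edgeR adjusted p = 0.0125) were lower and COX4I1 was higher (0.70, edgeR adjusted p = 0.0289). NDUFA9 lost its call without MKN-CEAR library 2 (edgeR adjusted p = 0.0682), ATP5PO without MKN-CEAR library 1 or MKN45 library 2 (0.0728 and 0.0522), and COX4I1 with each of the 6 libraries left out in turn (0.0742 to 0.141). In the integrated stress response list MKN-HER2R had 1 of 14 genes higher and 2 lower than MKN45, where 4.89% of all genes were higher and 4.85% lower. Under the block 1 was higher and 5 lower, where 16.2% and 17.5% of all genes were. CEBPB was at -1.49 (edgeR adjusted p = 0.00427).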

How the data were processed

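Total RNA of 3 cultured gastric tumour lines, 2 libraries each, was sequenced after ribosomal RNA depletion with a stranded kit, per the labels' protocols. The authors deposited raw counts for each gene symbol. Per the submitters' processing notes, GRCh38 and limma were used, with no version or role. For the aligner, the annotation and the strand setting of counting, the entry is "not given in the sources used here". Of the columns 0 went without a sample. The members and all lists were chosen with earlier results of these data known. Named are every member called in a contrast between lines, HIF1A and EPAS1, and the members of largest and smallest log2 fold change per set. Of the other lists, up to 3 called genes per direction and contrast were to be named. Some of these were left out, among them EPCAM, VIL1, PSAT1 and PPP1R15A. KDM4B, VEGFA, CA12, NDRG1, HILPDA and other members outside that rule were named after their values were seen.

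The main test was that of edgeR 4.0.16, run in R 4.3.3 (quasi-likelihood test, filterByExpr by line, TMM scaling, 1 model over 6 libraries, 3 residual and 3.51 prior degrees of freedom) with Benjamini-Hochberg adjustment over the 14958 tested symbols. The filter removed 14786 symbols. An SE was taken as the absolute log2 fold change divided by the root of the F statistic. Library differences used a pseudocount of 0.5 CPM. The scripts were tested on simulated data.

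The main test did not pair the libraries by number. The replicate block was fitted beside it, since over all tested genes the differences of number 2 and number 1 correlated between lines. The correlation was 0.466 for MKN-HER2R and MKN-CEAR, 0.447 for MKN-HER2R and MKN45 and 0.629 for MKN-CEAR and MKN45. Libraries of a line were not copies, since the chi-square of their counts per degree of freedom was 62.1 in MKN-HER2R, 91.5 in MKN-CEAR and 131 in MKN45. Of 174 symbols on other lists 173 were in the table, some under an older name, and 135 were tested. Positions and overlaps came from GENCODE 29 (GRCh38) and promoters from RefSeq. Alternatives were the replicate block, other scalings and filters, DESeq2 1.42.0, limma-voom (limma 3.58.1), the compared lines alone, the legacy quasi-likelihood method (chosen after seeing the data) and leaving out each library.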

Additional observations from a re-analysis of the deposited data

Results flagged for a closer look

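For 10 members the difference from MKN45 was not the same in the 2 derivatives, by the direct edgeR contrast of MKN-HER2R with MKN-CEAR. MKN45 cancels from that contrast, so each value below is also the difference of the 2 effects. EPAS1 was at 1.44 on the log2 scale (edgeR adjusted p = 0.00551), with 1.26 in MKN-HER2R and -0.19 in MKN-CEAR against MKN45. HK1 was at 1.67 (edgeR adjusted p = 0.0075), with 0.61 in MKN-HER2R and -1.06 in MKN-CEAR. SLC2A1 was at 1.76 (edgeR adjusted p = 0.0251), with 1.22 in MKN-HER2R and -0.53 in MKN-CEAR. GAPDH was at 0.94 (edgeR adjusted p = 0.0489), with 0.03 in MKN-HER2R and -0.92 in MKN-CEAR. The 6 others were positive in both derivatives and further from MKN45 in MKN-HER2R, with EGLN3 at 1.10, P4HA1 at 0.74, PLOD2 at 0.90, KDM3A at 0.79, ADM at 1.76 and DDIT4 at 1.59 between the derivatives (edgeR adjusted p between 0.0216 and 0.0399). Without MKN-HER2R library 2 these calls all ended, as given above.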

How the results depend on the processing

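Under the replicate block the members called numbered 23 in MKN-HER2R against MKN45, 12 in MKN-CEAR against MKN45 and 25 between the derivatives, where 10, 5 and 10 were called without it. DESeq2 called 20, 9 and 20. In MKN-CEAR against MKN45, no low-count filter gave 3 and the compared lines alone gave 2. With 1 library left out the counts ran from 1 to 11, from 1 to 2 and from 0 to 13 in the 3 contrasts, and from 2 to 5 for library number 2 against number 1. The median of HIF targets minus that of glycolysis genes ran from 0.47 to 0.90, from 0.52 to 0.71 and from 0.13 to 0.27 when a library was left out, and moved by less than the spread between libraries under every other setting. Direction reversed for ANGPTL4 in MKN-HER2R against MKN-CEAR, at -0.30 without MKN-HER2R library 2 (up to 2.79 with another library left out), and for HIF1A by number, at 0.0018 and 0.0056 without MKN45 library 1 or 2 (down to -0.13 with another left out). Without the block, ANGPTL4 was not called between the derivatives (edgeR adjusted p = 0.229). HIF1A was not called by number (edgeR adjusted p = 0.693). The other reversals were also of values not called by edgeR. VEGFA in MKN-HER2R against MKN45 was at 0.0070 under the replicate block and 0.0060 with limma-voom. With a library left out it ran from -0.23 to 0.24 in that contrast, ALDOA from -0.20 to 0.14, TPI1 from -0.39 to 0.075, GAPDH from -0.19 to 0.27 and PKM from -0.17 to 0.12. Between the derivatives BNIP3L ran from -0.30 to 0.18 and PFKFB3 from -0.75 to 0.28. The cause of these changes was not tested. The counts that follow cover the called members, the HIF alpha subunits, the members called under the block and the further genes whose fold changes are printed. Of 933 such values under settings that keep all libraries, 837 stayed on their side of the threshold with the same direction, 26 lost a call, 68 gained one and 2 reversed. Of 666 with a library left out, 467 stayed, 174 lost a call, 11 gained one and 14 reversed. Where calls ended with a library left out, fewer samples were fitted. Other scalings moved the median of all genes by at most 0.07. With 2 libraries a line, differences within the spread of a pair were not detectable.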

Other observations

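GAPDH is often used as a reference gene, and it was itself among the members whose level differed between lines. Set against GAPDH in place of the scaled library totals, the median of the 20 HIF targets was 1.27 in MKN-HER2R against MKN45, with 17 of 20 positive, where it was 1.30 on library totals with 17 positive. In MKN-CEAR against MKN45 it was 1.39 with 20 of 20 positive, where it was 0.47 with 16 positive. Between the derivatives it was -0.18 with 7 of 20 positive, where it was 0.77 with 15 positive. On that scale the median of MKN-CEAR was no longer below that of MKN-HER2R. These are values of the same 6 libraries with no test of their own.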
